A study of Mus musculus with 15 samples.

Results

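The genes described here encode chains of leukocyte integrins: the alpha chains Itgax (CD11c), Itgam (CD11b) and Itgal (CD11a), their common beta chain Itgb2 (CD18), and the alpha 4 chain Itga4 (CD49d) with the beta 7 chain Itgb7. They were taken as the probe sets whose single gene symbol in the platform annotation is one of these 6 names, which gave 9 probe sets for 6 genes, out of 8251 genes with such a probe set and 12422 probe sets tested. Itga4 had 3 probe sets, Itgb7 had 2 and each of the other genes had 1, and the one with the highest mean stands for its gene unless another is named.

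Integrins are heterodimers of an alpha and a beta chain that let a leukocyte grip other cells and matrix, and they bind strongly only after signals from inside the cell open them. Itgb2 pairs with Itgal to form LFA-1, with Itgam to form Mac-1 (complement receptor 3) and with Itgax to form complement receptor 4, and CD11c is the surface marker by which mouse dendritic cells (DC) are usually recognised. Itga4 pairs with Itgb1 to form VLA-4, which binds Vcam1 and fibronectin, or with Itgb7 to form the gut-homing receptor LPAM-1, which binds Madcam1.

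DC were grown from bone marrow of female NOD mice (non-obese diabetic, a strain that develops autoimmune diabetes) aged 6 to 8 weeks, in culture for 4 days. GM DC received GM-CSF at 1 ng/ml and were purified on a 16% metrizamide gradient, and GM4 DC received GM-CSF and interleukin-4, each at 1 ng/ml, and were purified on a 14.5% gradient, so growth factor and gradient density differ together. Both were then stimulated with 10 µg/ml lipopolysaccharide (LPS) and 50 ng/ml interferon-γ, and RNA was taken at 0 h, 6 h and 20 h, with 3, 2 and 2 GM arrays and 3, 3 and 2 GM4 arrays in that order. The GM4 0 h samples are placed by their titles, although their source names mention exposure, and the protocol of GM4 0 h replicate 1 gives no doses and no gradient. The labels call the arrays of a group replicates without saying whether they came from separate mice or cultures, so p-values measure the spread between these samples, which may be technical.

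Median signals of the 15 arrays ran from 40.1 to 48.5, 29.7% to 35.3% of the probe sets lay under a signal of 16, and log2 values of replicate arrays correlated at 0.966 or more. Precision is limited by how few arrays there are. All 15 dendritic cell markers that were measured had a signal of at least 16 on every array, while 6 of 13 T and NK cell markers and 7 of 14 mast cell, basophil and eosinophil markers were below 16 on every array. Changes are given as differences of log2(signal + 16) ± limma's standard error, which understates changes of genes with low signals, and a change was called at a Benjamini-Hochberg adjusted p under 0.05 over all 12422 probe sets. The median difference over all probe sets lay between -0.06 and 0.04 in the 11 comparisons made.

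Itgam and Itgax are next to each other on chromosome 7, with 0 protein-coding genes between them in the RefSeq annotation of GRCm38.p6, and Itgal lies on the same chromosome with 35 protein-coding genes between it and Itgam. The promoters of the neighbours Itgam and Itgax are shown because the time courses of these genes, given further on, were unlike. The 250 bases before the annotated start of each gene (RefSeq, GRCm38.p6) are printed 5′ to 3′ on the gene's strand, which is the plus strand for both, and capitals mark matches to the motifs searched: GAGGAA (PU.1), TGTGGT (RUNX), TGANTCA (AP-1), TTCNNNNGAA (STAT6) and GGGCGG (Sp1), on both strands.
Itgam, chr7:128062390-128062639: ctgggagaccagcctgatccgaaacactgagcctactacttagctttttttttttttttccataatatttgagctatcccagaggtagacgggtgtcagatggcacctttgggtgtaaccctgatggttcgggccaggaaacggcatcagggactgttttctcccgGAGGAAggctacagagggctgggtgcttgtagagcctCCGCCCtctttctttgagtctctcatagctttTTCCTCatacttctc
Itgax, chr7:128129300-128129549: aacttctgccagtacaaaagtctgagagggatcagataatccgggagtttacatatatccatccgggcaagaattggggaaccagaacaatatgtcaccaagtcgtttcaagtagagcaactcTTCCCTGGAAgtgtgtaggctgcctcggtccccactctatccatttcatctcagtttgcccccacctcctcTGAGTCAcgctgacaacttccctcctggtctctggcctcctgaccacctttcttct
In Itgam, GAGGAA stood 84 bases before the start on the gene's strand and 15 bases before it on the other strand, and GGGCGG stood 47 bases before it on the other strand. In Itgax, TTCNNNNGAA stood 127 bases and TGANTCA 56 bases before the start, and the matches do not overlap. Of 32851 windows of the same length in the table, 23.3% hold GAGGAA, 14% TGTGGT, 6.75% TGANTCA, 5.85% TTCNNNNGAA and 32.7% GGGCGG. Of the other members, Itga4 held TGTGGT on the other strand and GGGCGG, 60 and 114 bases before its start, and Itgb7 held 0 matches. A match is a description of letters and not a bound site.

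The 6 genes followed different courses. Itgb2 and Itgal were lower in GM4 than in GM DC at 0 h and 6 h, Itgax fell stepwise after stimulation in both DC types, Itga4 was highest at 6 h, and Itgb7 was lowest at 6 h. The order of the group levels differed from gene to gene, and the plot of signals by array shows it.

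**Figure D1:**
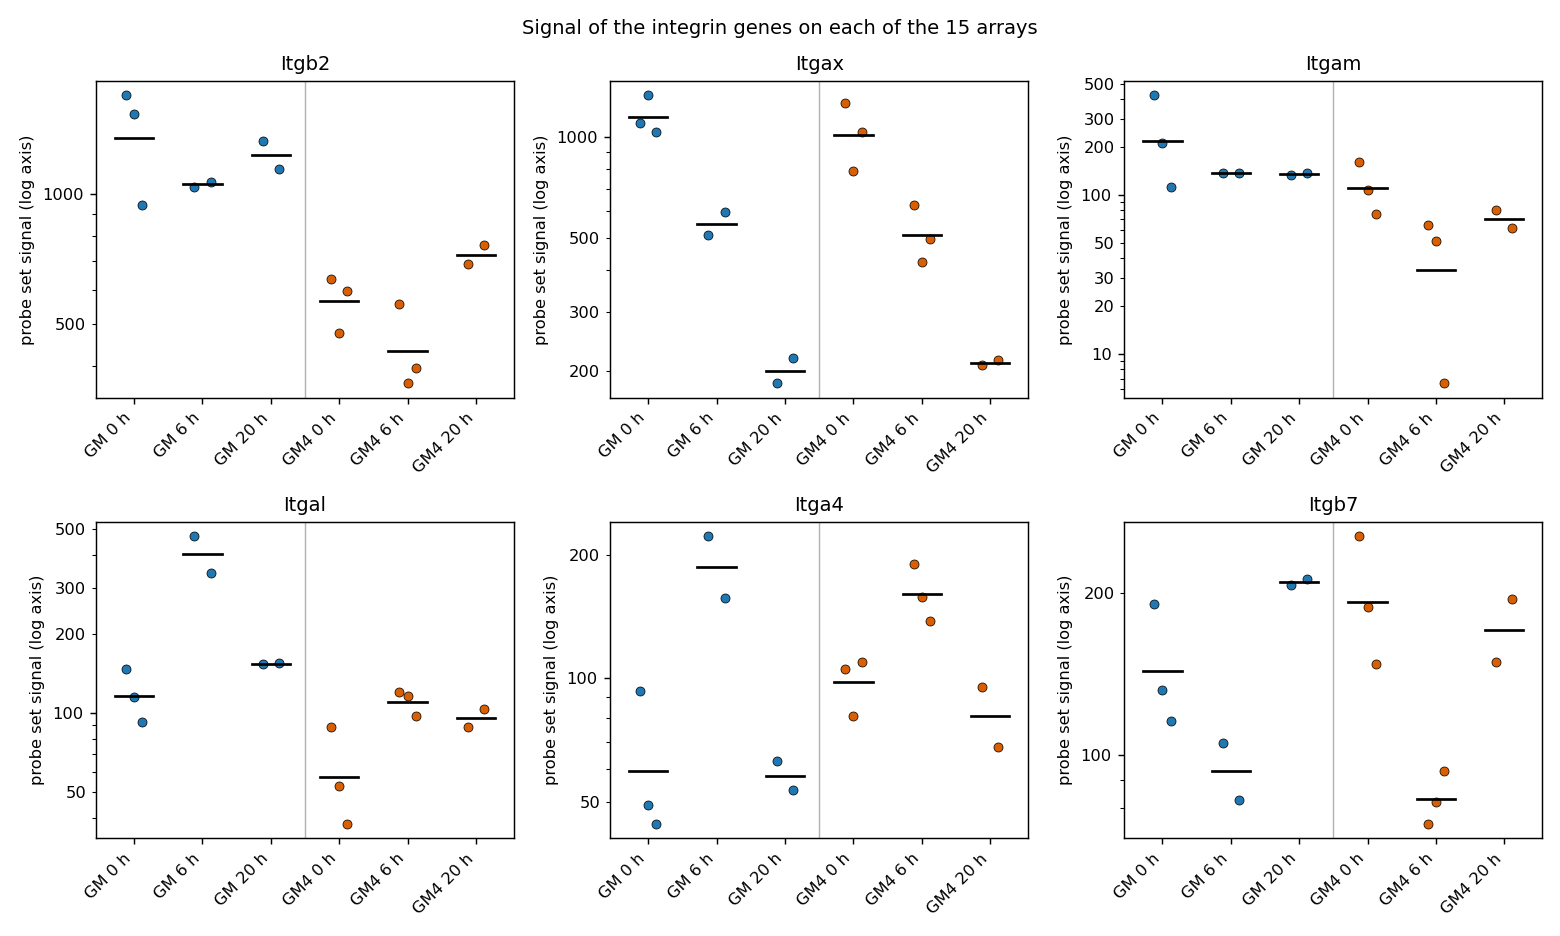
Signal of the main probe set of each gene on each array (log axis), by group, with GM arrays in blue and GM4 arrays in orange. Each point is an array and each bar is the back-transformed group mean of log2(signal + 16). All 8 GM4 arrays of Itgb2 lie below all 7 GM arrays, and Itgax descends from 0 h to 20 h in both DC types.

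Itgb2, the beta chain that every CD11 chain needs to reach the cell surface, gave GM signals of 1698, 1537 and 945 before stimulation, 1042 and 1066 after 6 h, then 1330.2 and 1146 after 20 h. The GM4 signals were 636, 477 and 597 before stimulation, then 557, 364 and 396 after 6 h, then 690.3 and 761 after 20 h. No GM4 array reached the lowest GM array, which was GM 0 h replicate 3. The difference GM4 minus GM was -1.23 ± 0.20 on the log2 scale at 0 h, a fold of 2.35, with an adjusted p of 0.00105 in limma. In bulk samples, fewer cells of a type and less RNA per cell cannot be told apart. At 6 h the difference was -1.26 ± 0.23, a fold of 2.39 (adjusted p = 0.00289). At 20 h it was -0.76 ± 0.25, with a 95% interval from -1.29 to -0.22 and an adjusted p of 0.113, which misses the threshold but does not show equal levels. Without GM 0 h replicate 3, whose Itgb2 signal was the lowest of its group, the 20 h difference passed with an adjusted p of 0.0369, within a range of 0.0266 to 0.429 over its 28 alternatives. That array is outside the 20 h comparison. Leaving out such an array keeps the difference and changes only the spread shared by all groups and the adjustment. The 0 h and 6 h differences kept their calls under all 28.

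No change of Itgb2 with time was called. Its 6 h difference from 0 h was -0.35 ± 0.23 in GM DC and -0.38 ± 0.20 in GM4 DC, and neither passed (adjusted p = 0.314 and 0.264). Without GM 0 h replicate 3 the GM change was -0.61 and passed (adjusted p = 0.034, range over alternatives 0.034 to 0.651). From 6 h to 20 h the GM4 level was higher by 0.73 ± 0.23 with an adjusted p of 0.0552. That value passed without GM 0 h replicate 1 (adjusted p = 0.0411), without GM 0 h replicate 3 (0.015) and without GM4 6 h replicate 1 (0.0219), over a range of 0.00445 to 0.307. In the order of group means, GM 0 h and GM 20 h overlapped, as did GM4 0 h and GM4 6 h, and the other neighbours did not.

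Itgal, the alpha chain of LFA-1, which binds Icam1 on T cells and endothelium, stood at 147, 115 and 92.8 in unstimulated GM DC, reached 471 and 342 after 6 h and gave 154 and 155 after 20 h. Unstimulated GM4 DC gave 89.0, 52.7 and 37.9, with 120.0, 116 and 97.2 after 6 h, then 88.4 and 104 after 20 h. Both GM arrays at 6 h stood above every other array, and the arrays of the 4 lowest groups (GM 0 h, GM4 6 h, GM4 20 h and GM4 0 h) overlapped from each to the next. The 6 h rise was 1.65 ± 0.25 in GM DC (fold 3.15, adjusted p = 0.000247) and 0.80 ± 0.22 in GM4 DC (fold 1.74, adjusted p = 0.0264). From 6 h to 20 h Itgal fell by 1.29 ± 0.28 in GM DC (adjusted p = 0.00494), and in GM4 DC the difference was -0.18 ± 0.25 (adjusted p = 0.785). At 20 h against 0 h the GM value was 0.36 ± 0.25, which was not called (adjusted p = 0.337), though the arrays did not overlap. The difference between the 2 rises at 6 h, GM4 minus GM, was -0.86 ± 0.34 with a 95% interval from -1.58 to -0.13, and it did not pass over all probe sets (adjusted p = 0.298).

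Itgal was lower in GM4 DC, with differences of -0.86 ± 0.22 before stimulation (fold 1.82, adjusted p = 0.0205) and -1.72 ± 0.25 after 6 h (fold 3.29, adjusted p = 0.000629). At 20 h the difference was -0.61 ± 0.28 (adjusted p = 0.278). The 6 h difference was called in all 28 alternatives, while the 0 h difference was lost on leaving out GM 0 h replicate 1 (-0.71, adjusted p = 0.0708) or replicate 2 (-0.87, 0.0583), or GM4 0 h replicate 2 (-0.82, 0.0657) or replicate 3 (-0.64, 0.0855), over a range of 0.00359 to 0.103. The 6 h rise in GM4 DC was lost without GM4 0 h replicate 2 (0.75, adjusted p = 0.0814), GM4 0 h replicate 3 (0.58, 0.114), GM4 6 h replicate 1 (0.75, 0.0854) and GM4 6 h replicate 2 (0.76, 0.0824), over a range of 0.00446 to 0.114. The fall in GM DC after 6 h was lost without GM 6 h replicate 1 (-1.07, adjusted p = 0.0568, range 0.000895 to 0.0568). The GM4 level at 20 h against 0 h, 0.62 ± 0.25, was not called (adjusted p = 0.103), but passed without GM4 0 h replicate 1 (0.88, 0.0164, range 0.0164 to 0.422). These calls rest on groups of 2 or 3 arrays.

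Itgam, the alpha chain of Mac-1 and a marker of myeloid cells, had the largest standard error of the 6 genes. Its GM signals were 421, 213 and 112 before stimulation, with 138 on both arrays after 6 h, then 133 and 137 after 20 h. Its GM4 signals began at 161, 108 and 75.9, went to 64.6, 51.4 and 6.5 after 6 h, and were 80.0 and 62.0 after 20 h. Every GM4 array at 6 h and 20 h lay below every GM array, and at 0 h the 2 DC types overlapped. GM4 minus GM, the differences at the 3 times were -0.89 ± 0.46, -1.63 ± 0.51 and -0.80 ± 0.56, with adjusted p of 0.236, 0.0564 and 0.54, so none passed in the fit with group means only. Their 95% intervals ran from -1.87 to 0.09, from -2.73 to -0.53 and from -2.01 to 0.40. The 6 h value in GM4 DC against 0 h was -1.35 ± 0.46 (adjusted p = 0.0633), and none of the changes of Itgam with time was called in that fit. With the replicate number as a fixed block, which the correlations of these GM4 arrays allow, the same value had an adjusted p of 0.00129. The block also called Itgam lower in GM4 than in GM DC at 0 h (adjusted p = 0.0182) and 6 h (-1.22, 0.00919), but not at 20 h. Against 0 h it called lower levels in GM DC at 6 h (-1.02, 0.0123) and 20 h (-1.04, 0.00904) and in GM4 DC at 20 h (-0.96, 0.0191). Replicate numbers were not taken to pair the groups of these further calls.

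Leaving out single arrays moved these values across the threshold. The 6 h difference of Itgam between the DC types passed once GM 0 h replicate 1 (adjusted p = 0.0322) or replicate 3 (0.0342), or GM4 6 h replicate 1 (-1.98, 0.0307), was left out, over a range of 0.000397 to 0.219. The 6 h change in GM4 DC passed without GM 0 h replicate 1 (adjusted p = 0.0355), GM 0 h replicate 3 (0.0379) and GM4 6 h replicate 1 (-1.70, 0.0378), over a range of 0.000644 to 0.24. Without GM4 6 h replicate 3, the array at 6.5, the differences at 6 h were -1.06 between DC types and -0.78 against 0 h. Within the groups of 3 the lowest Itgam signal was always on the array whose Gapdh control had the highest 3′ over 5′ ratio: 2.46 for GM 0 h replicate 3, 1.31 for GM4 0 h replicate 3 and 1.48 for GM4 6 h replicate 3, against 1.03 to 1.71 on the other arrays of these groups. In each of these groups Itgam fell from replicate 1 to 2 to 3 while the Gapdh ratio rose. Replicate number and Gapdh ratio cannot be told apart there. The same ratio of the actin control was highest in its group on GM 0 h replicate 3 (1.88) and GM4 0 h replicate 3 (1.44). In GM4 DC at 6 h it was highest on replicate 2 (1.18), with 1.17 on replicate 3. The Gapdh ratio, which is higher where RNA is shorter or copied less fully, averaged 1.70 ± 0.395 (SD, n = 7) in GM and 1.16 ± 0.154 (SD, n = 8) in GM4 DC. The part of these ratios in the Itgam values was not tested beyond a fit with the mean of their log2 values as an RNA quality covariate. In that fit the differences between DC types were -2.45, -3.24 and -2.79 at 0, 6 and 20 h and all passed (adjusted p = 0.000841, 0.000397 and 0.00759). The actin ratio ran from 1.43 to 2.26 on GM and from 1.13 to 1.44 on GM4 arrays. Covariate and DC type can therefore hardly be told apart in that fit.

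Itgax, the CD11c chain, fell with time in both DC types and was not called different between them. GM DC gave 1100.0, 1326 and 1034 before stimulation, 509 and 594 after 6 h, then 184 and 219 after 20 h. GM4 DC gave 1255, 792 and 1032, followed by 625, 424 and 494 after 6 h and by 208 and 216 after 20 h. The arrays of the 2 DC types overlapped at each time, and the arrays of successive times did not overlap in either type. Itgax fell by 1.04 ± 0.19 from 0 h to 6 h in GM DC (fold 2.05, adjusted p = 0.00122) and fell by 0.97 ± 0.17 in GM4 DC (fold 1.96, adjusted p = 0.00159). From 0 h to 20 h it fell by 2.42 ± 0.19 in GM DC (fold 5.37, adjusted p = 6.55e-07), and it fell by 2.17 ± 0.19 in GM4 DC (fold 4.49, adjusted p = 3.04e-06). The step from 6 h to 20 h alone was -1.39 ± 0.21 and -1.20 ± 0.19, with adjusted p of 0.000515 and 0.00111. All 6 of these calls held in all 28 alternatives.

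The difference of Itgax between DC types was -0.18 ± 0.17, -0.11 ± 0.19 and 0.07 ± 0.21 at the 3 times. The 95% intervals ran from -0.56 to 0.19, from -0.53 to 0.31 and from -0.38 to 0.53, and adjusted p was 0.556, 0.777 and 0.923. The 2 time courses differed by 0.07 ± 0.26 at 6 h and 0.26 ± 0.27 at 20 h, with intervals from -0.49 to 0.63 and from -0.33 to 0.85. All 5 intervals include 0 and leave out differences of 1 log2 unit in either direction.

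**Figure D2:**
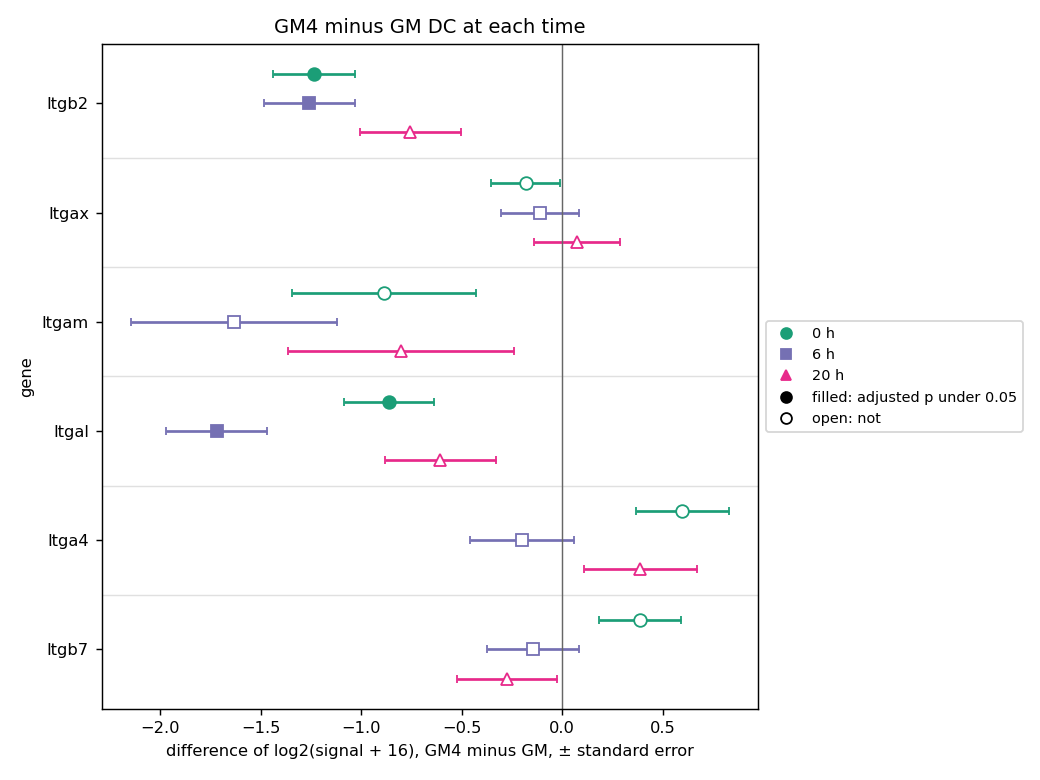
Difference of log2(signal + 16), GM4 minus GM DC, for each gene at 0 h (circles), 6 h (squares) and 20 h (triangles), with bars of limma's standard error and filled symbols where the adjusted p was under 0.05. Itgb2 and Itgal are filled at 0 h and 6 h, and Itgax lies between -0.18 and 0.07.

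Itga4, the alpha 4 chain, had its highest levels at 6 h in both DC types. The main probe set, 95292_at, gave 93.3, 49.2 and 44.1 in unstimulated GM DC, 223 and 157 after 6 h, then 62.8 and 53.3 after 20 h. Unstimulated GM4 DC gave 106, 81.0 and 109.9, with 190.1, 158 and 138 after 6 h, then 95.3 and 68.1 after 20 h. The arrays at 6 h did not overlap those at 0 h or 20 h in either type, and the 2 types overlapped at 6 h. Itga4 rose by 1.43 ± 0.26 from 0 h to 6 h in GM DC (fold 2.70, adjusted p = 0.000902) and fell by 1.46 ± 0.28 from 6 h to 20 h (adjusted p = 0.00261). In GM4 DC the 6 h value was 0.63 ± 0.23 above 0 h, which did not pass (adjusted p = 0.083, and 0.0217 with the replicate block, over a range of 0.0175 to 0.251 in the alternatives), and from 6 h to 20 h it fell by 0.87 ± 0.26 (adjusted p = 0.0422). The 2 GM calls held in all 28 alternatives.

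The GM4 fall of Itga4 after 6 h was lost without each GM4 6 h and GM4 20 h array, with values between -1.07 and -0.67 and adjusted p up to 0.354, the lowest over alternatives being 0.00777. It was also lost without either GM 20 h array or without GM4 0 h replicate 1 or 3. Those arrays are outside the comparison, so the value stayed at -0.87 and adjusted p ran only from 0.0502 to 0.0551. Without GM 0 h replicate 1 the 6 h rise in GM4 DC passed (adjusted p = 0.0312, range 0.0175 to 0.251), and so did the 0 h difference between DC types (0.87, adjusted p = 0.0134, range 0.0134 to 0.882). With all arrays GM4 minus GM was 0.60 ± 0.23, -0.20 ± 0.26 and 0.39 ± 0.28 at the 3 times, with adjusted p of 0.107, 0.684 and 0.56. The difference of the 6 h responses, GM4 minus GM, was -0.80 ± 0.35, with an adjusted p of 0.359.

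A second probe set of Itga4, 102655_at, gave 64.6, 38.0 and 62.8 in unstimulated GM DC, 146 and 132 after 6 h, then 33.1 and 30.2 after 20 h. In GM4 DC it gave 85.4, 99.6 and 63.6, then 147, 159 and 123, then 66.5 and 78.8. It too was highest at 6 h in both DC types. Its rise at 6 h was 1.14 ± 0.22 in GM DC (adjusted p = 0.00135) and 0.69 ± 0.19 in GM4 DC (adjusted p = 0.0252), and from 6 h to 20 h the differences were -1.70 ± 0.24 and -0.84 ± 0.22 (adjusted p = 0.000253 and 0.022). It was also higher in GM4 than in GM DC at 20 h by 0.89 ± 0.24 (adjusted p = 0.0469), where the main probe set gave 0.39 ± 0.28. That last Itga4 call held in 13 of 27 alternatives (adjusted p from 0.021 to 0.373) and was lost without any 1 of the GM 6 h, GM 20 h, GM4 6 h or GM4 20 h arrays or GM4 0 h replicate 1. Its GM4 rise was lost without GM4 0 h replicate 1 or 3 or GM4 6 h replicate 1 or 2 (0.54 to 0.72, adjusted p up to 0.107), and its GM4 fall without GM4 6 h replicate 1 or 2 or either GM4 20 h array (-0.94 to -0.74, adjusted p up to 0.155). The third probe set, 102656_at, was below 16 on 13 of 15 arrays and had no call in any comparison.

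**Figure D3:**
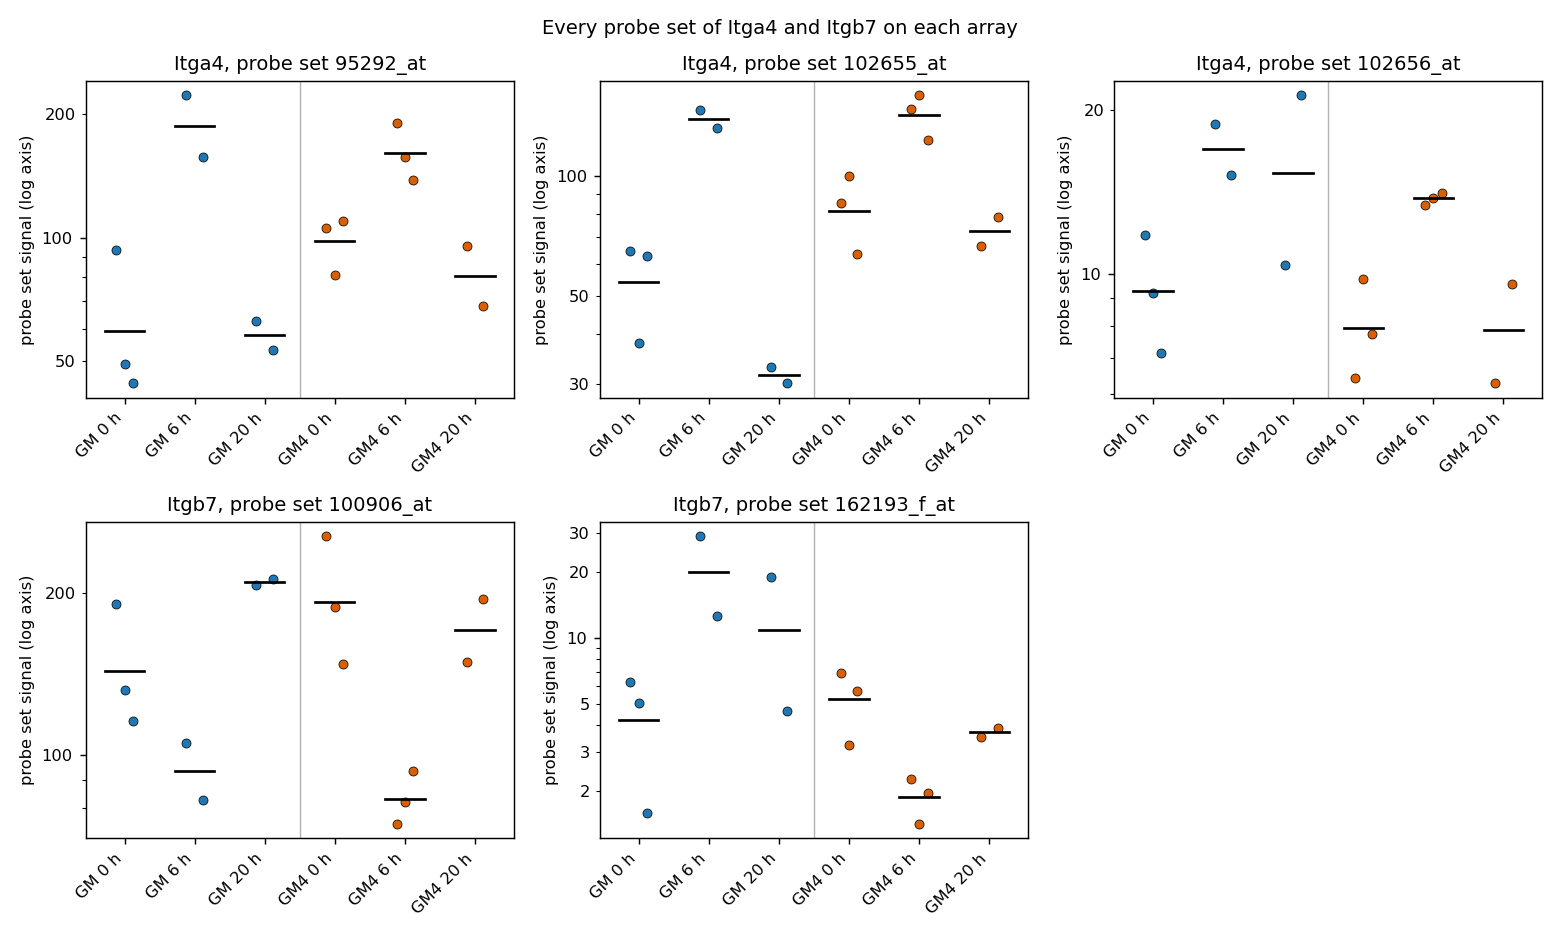
Signal of each of the 3 probe sets of Itga4 and the 2 of Itgb7 on each array (log axis), by group, with GM in blue, GM4 in orange and bars for the back-transformed group mean of log2(signal + 16). The first pair of Itga4 probe sets peaks at 6 h in both DC types, and the low probe sets 102656_at and 162193_f_at lie below 16 on 13 of 15 arrays each.

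Itgb7, one of the beta chains that pair with Itga4, was lowest at 6 h, when Itga4 was highest. The main probe set, 100906_at, gave 191, 132 and 116 in unstimulated GM DC, 106 and 82.5 after 6 h, then 207 and 212 after 20 h. GM4 DC gave 255, 188 and 148, followed by 74.6, 81.8 and 93.4 after 6 h and by 149 and 194 after 20 h. The arrays at 6 h lay below all arrays at 0 h and 20 h of both DC types. Itgb7 fell by 1.07 ± 0.20 at 6 h in GM4 DC (fold 2.10, adjusted p = 0.0024), a call that held in all 28 alternatives, and the GM value was -0.54 ± 0.23 (adjusted p = 0.109). From 6 h to 20 h it rose by 1.04 ± 0.25 in GM DC (fold 2.06, adjusted p = 0.0104) and by 0.91 ± 0.23 in GM4 DC (fold 1.88, adjusted p = 0.0181). At 20 h against 0 h the values were 0.50 ± 0.23 in GM and -0.16 ± 0.23 in GM4 DC, neither called (adjusted p = 0.13 and 0.701).

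The GM rise of Itgb7 after 6 h was lost without GM 6 h replicate 2 (0.89, adjusted p = 0.0804) and without GM 20 h replicate 2 (1.02, 0.063), over a range of 0.0044 to 0.421. The GM4 rise was lost without GM4 6 h replicate 2 (0.90, adjusted p = 0.0536) and without GM4 20 h replicate 2 (0.74, 0.21), over a range of 0.00329 to 0.21. The 20 h value of GM DC against 0 h passed without GM 0 h replicate 1 (0.69, adjusted p = 0.0368, range 0.0368 to 0.336). Between DC types Itgb7 differed by 0.39 ± 0.20, -0.14 ± 0.23 and -0.27 ± 0.25 at the 3 times, and none of these passed (adjusted p = 0.244, 0.748 and 0.671).

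The second probe set of Itgb7, 162193_f_at, disagreed with the main one at signals near background. It gave 29.2 and 12.6 in GM DC at 6 h, against 6.3, 5.0 and 1.6 at 0 h, a rise of 0.83 ± 0.21 (adjusted p = 0.00947), and 1.4 to 2.3 in GM4 DC at 6 h, a difference of -1.01 ± 0.21 from GM DC (adjusted p = 0.0071). Both calls of this Itgb7 probe set were lost without GM 6 h replicate 1, the array at 29.2 (0.50, adjusted p = 0.175, range 0.00265 to 0.311, and -0.68, adjusted p = 0.115, range 0.00216 to 0.115). On the mean of both probe sets the Itgb7 rises after 6 h were 0.31 in GM and 0.53 in GM4 DC and were no longer called (adjusted p = 0.421 and 0.124).

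Itgb1, the other partner of Itga4, had 2 probe sets that disagreed about the DC types. Its main probe set, 100123_f_at, differed at 6 h by -0.75 ± 0.16 (adjusted p = 0.00733), with signals of 2531, 2287 and 2370.3 against 4278 and 3829 in GM DC. Without GM 6 h replicate 1 this Itgb1 difference was -0.67 and was lost (adjusted p = 0.0806, range 0.00205 to 0.138). At 0 h it differed by -0.09 ± 0.14 (adjusted p = 0.759), where the other probe set, 100124_r_at, was higher in GM4 DC by 0.60 ± 0.13 (adjusted p = 0.00753). With the RNA quality covariate that Itgb1 value was 0.49 and was not called (adjusted p = 0.154, range 0.0022 to 0.154). Neither showed a called change with time, and the 6 h values against 0 h in GM DC were 0.42 ± 0.16 and 0.40 ± 0.15 (adjusted p = 0.0707 and 0.0689).

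**Figure D4:**
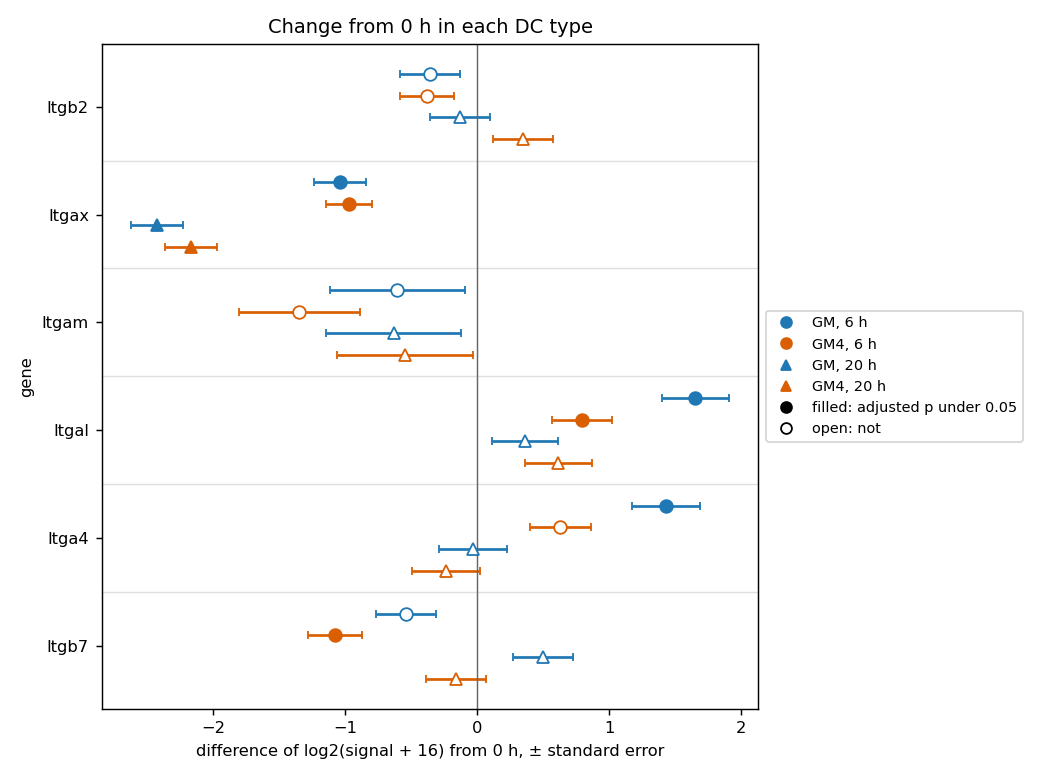
Change of log2(signal + 16) from 0 h to 6 h (circles) and to 20 h (triangles) in GM (blue) and GM4 DC (orange) for each gene, with bars of limma's standard error and filled symbols where the adjusted p was under 0.05. Itgax moves furthest, to -2.42 and -2.17 at 20 h, while Itgal and Itga4 lie to the right of 0 at 6 h and Itgb7 to the left.

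Counted over the 6 main probe sets, GM4 DC had 2 genes lower than GM DC at 0 h and 2 at 6 h, in both cases Itgb2 and Itgal, and 0 higher. Of all probe sets 6.86% were called higher and 7.12% lower at 0 h, and 6.39% and 4.74% at 6 h. At 20 h limma called 0 of the 6 in either direction, with 2 at an unadjusted p under 0.05, where 3.14% of all probe sets were called higher and 1.56% lower. At an unadjusted p under 0.05 the genes higher in GM4 DC numbered 1 at 0 h and 0 at 6 h. The median of the 6 differences was -0.52, -0.73 and -0.44 at the 3 times.

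In GM DC 2 of the 6 genes were called higher at 6 h than at 0 h (Itgal and Itga4) and 1 lower (Itgax), with 8.52% and 15.7% of all probe sets called higher and lower. At 20 h against 0 h only Itgax was called, lower, beside backgrounds of 11.0% higher and 16.0% lower. From 6 h to 20 h 1 gene was called higher (Itgb7) and 3 lower (Itgax, Itgal and Itga4), beside 8.70% and 7.75%. In GM4 DC 1 gene was called higher at 6 h (Itgal) and 2 lower (Itgax and Itgb7), beside 5.84% and 10.0%. With the replicate block 5 genes were called in this comparison, Itga4 higher and Itgam lower in addition. At 20 h against 0 h Itgax was again the only call, lower, beside 8.71% higher and 12.3% lower. From 6 h to 20 h 1 gene was called higher (Itgb7) and 2 lower (Itgax and Itga4), beside 5.68% and 6.01%. The comparisons within a DC type share their 6 h or 0 h arrays and are not independent of each other.

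For the difference of responses between DC types limma called 0 of the 6 genes at 6 h and 0 at 20 h, with 2 (Itgal and Itga4) and 0 at an unadjusted p under 0.05. Of all probe sets 0.443% were called higher and 0.515% lower at 6 h, and 0.555% and 0.708% at 20 h. So none of the 6 genes was called as responding differently in the 2 DC types by limma.

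The genes whose signals followed each member most closely over the 15 arrays were taken by Pearson's r among 3221 or 3222 probe sets with a mean log2 of at least 7, as a description, since all points share the same arrays and 6 groups. Itgax was closest to S100a6, a calcium-binding protein (r = 0.960), Tkt, an enzyme of the pentose phosphate pathway (0.955) and Etfb (0.948). Itgb2 was closest to Myo1f, a leukocyte myosin (0.955), Ctsa, a lysosomal protease (0.949) and Unc93b1, the chaperone of endosomal Toll-like receptors (0.939). Itgam shared Myo1f (0.886) among its 3, with Dab2 (0.888) and Tbxas1, thromboxane synthase (0.883). For Itgal they were F10 (0.911), Lcp1, an actin-bundling protein of leukocytes (0.905) and Id2, a regulator of DC development (0.901). Itga4 and Itgb7 had Adprm (0.883) and Tmem179b (0.898) first.

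Cell markers moved with the DC type alongside Itgb2 and Itgal. Of 13 monocyte and macrophage markers, 8 were lower in unstimulated GM4 DC, 10 after 6 h and 4 after 20 h, when 1 was higher. Their summed signal was 14166 to 17474 in GM and 5299 to 5996 in GM4 DC at 0 h, 18714 to 25975 and 5369 to 7115 at 6 h, and 15636 to 16639 and 9206 to 9419 at 20 h. Cd14 and Lyz2 weigh most in this sum, with means of 10429 and 6349 in GM DC at 6 h. The means of C1qa, C1qb and C1qc were higher in GM4 DC at 0 h (312, 182 and 368, against 212, 140 and 313), with 0 of the 13 markers called higher there. For Lyz2, lysozyme, GM4 minus GM was -1.68 ± 0.17 at 0 h and -2.68 ± 0.19 at 6 h, and 8 of the 13 markers were at or above 16 on every array. The part of such cells in the values of Itgb2 and Itgal was not tested. Of 15 dendritic cell markers 9 were higher in unstimulated GM4 DC, 5 after 6 h and 5 after 20 h, with Ccr7 higher by 2.25 ± 0.23 and Batf3 by 2.11 ± 0.18 at 0 h, beside -0.18 ± 0.17 for Itgax, which is not in the list.

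Neutrophil markers were lower in sum at 20 h, when Itgax was also lowest. At 6 h against 0 h, when Itgax had fallen, 0 of 15 were called lower and 1 higher in GM DC. In GM4 DC 3 were lower and 1 higher. Of 15, 7 were lower and 2 higher at 20 h than at 0 h in GM DC, and 9 were lower and 2 higher in GM4 DC, and their summed signal went from 9489 to 9726 at 0 h to 3629 to 4839 at 20 h in GM DC. In GM4 DC it went from 9954 to 15494 at 0 h to 3264 to 3362 at 20 h. Of 15 dendritic cell markers 1 was lower and 1 higher at 20 h than at 0 h in GM DC and 3 were lower in GM4 DC. From 6 h to 20 h 6 were lower and 0 higher in each DC type. Of 13 monocyte and macrophage markers 7 were lower and 4 higher at 20 h than at 0 h in GM DC, and 4 and 4 in GM4 DC. The part of any of these in the fall of Itgax was not tested. The 10 measured B cell markers summed to 215 to 396 per array, with 1 higher and 1 lower in GM4 DC at 0 h, and the 6 plasmacytoid dendritic cell markers, with 2 higher there, summed to 319.5 to 352 in GM and 392 to 601 in GM4 DC at 0 h. Of the T and NK markers 2 were higher and 1 lower in GM4 DC at 0 h, as were 2 and 1 of the mast cell, basophil and eosinophil markers.

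**Figure D5:**
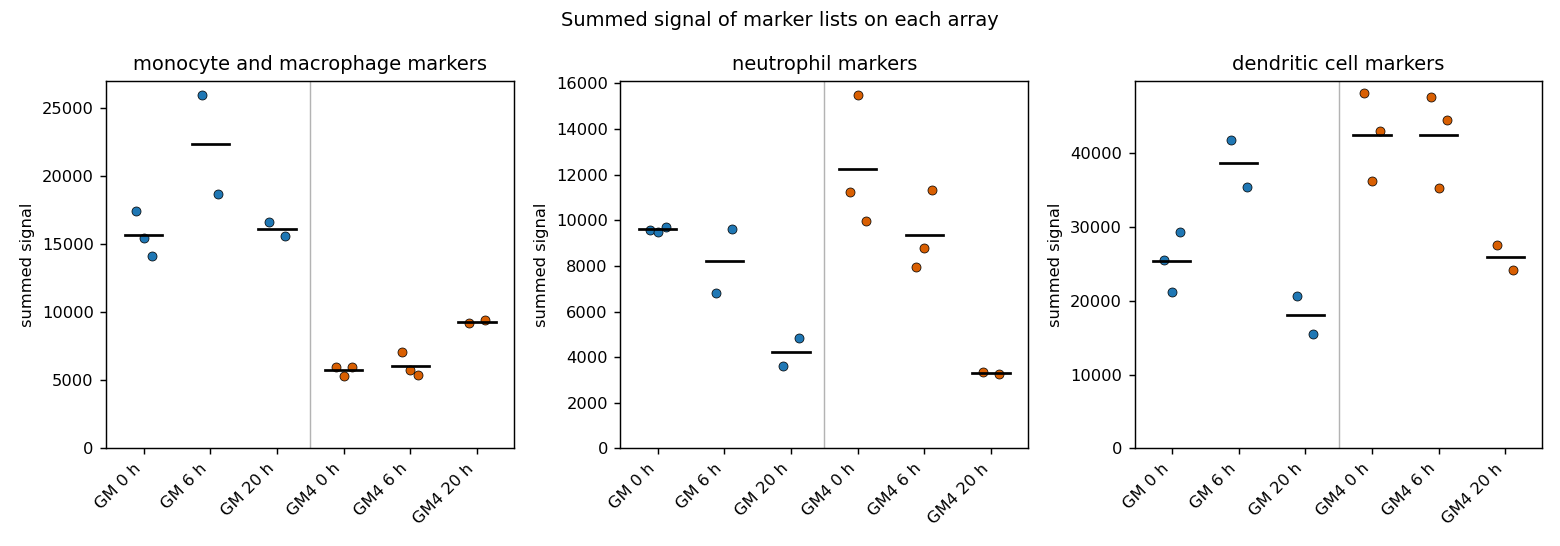
Summed signal of the monocyte and macrophage (13 genes), neutrophil (15 genes) and dendritic cell (15 genes) markers on each array, by group, with bars for the group mean. The first sum is lower on each of the 8 GM4 arrays (at most 9419) than on each of the 7 GM arrays (at least 14166), and the neutrophil sum is lowest at 20 h in both DC types.

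Among 12 other measured integrin chains, 1 was lower in unstimulated GM4 DC, 2 after 6 h and 2 after 20 h, and Itgb5, a partner of the alpha V chain, was among them each time (-1.37 ± 0.28, -1.56 ± 0.31 and -1.80 ± 0.34). Against 0 h, 1 rose and 2 fell at 6 h in each DC type, and 3 rose and 2 fell at 20 h in each. Of all probe sets 8.52% rose and 15.7% fell at 6 h in GM DC, and 5.84% and 10.0% in GM4 DC. The counts of this and the other lists, cell markers included, were not tested against the shares of all probe sets. Itga5, the alpha chain of the fibronectin receptor, went the other way from Itgax, with rises of 2.90 ± 0.30 in GM and 2.34 ± 0.30 in GM4 DC at 20 h. For Itgae, the other alpha chain known to pair with Itgb7, GM4 DC gave -0.69 ± 0.18 at 6 h and -0.91 ± 0.20 at 20 h against 0 h, both called.

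Of 12 integrin ligands 2 rose and 1 fell at 6 h in GM DC and 1 rose in GM4 DC. Vcam1, the ligand of VLA-4, rose by 2.72 ± 0.36 in GM and 1.34 ± 0.32 in GM4 DC at 6 h and from 6 h to 20 h it changed by -4.00 ± 0.39 and -2.10 ± 0.36, so that it was highest at 6 h, as Itga4 was. Icam1, the main ligand of LFA-1, was higher in GM4 DC at 0 h by 1.53 ± 0.23 and at 20 h by 1.19 ± 0.28, while Itgal was lower there at 0 h. Fn1, fibronectin, was lower in GM4 DC at all 3 times, with differences of -1.28 ± 0.18, -1.41 ± 0.20 and -1.09 ± 0.22.

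Of 18 genes that open integrins from inside the cell or adapt them, 2 rose and 5 fell at 6 h in GM DC and 1 rose and 4 fell in GM4 DC. Rassf5 (RAPL), which links Rap1 to LFA-1, changed by -2.00 ± 0.12 in GM and -1.04 ± 0.11 in GM4 DC at 6 h, when Itgal rose in both. Apbb1ip (RIAM), which recruits talin, was lower in GM4 DC at all 3 times (-0.66 ± 0.10, -0.72 ± 0.11 and -0.68 ± 0.13). Of 24 signalling and cytoskeleton genes 1 was higher and 5 lower in unstimulated GM4 DC, and 6 were higher and 4 lower after 6 h. Fcer1g, one of the adaptor chains of integrin signalling in myeloid cells, was lower in GM4 DC at 0 h (-1.31 ± 0.23), and Fyn, a Src family kinase, was higher by 2.44 ± 0.23. Tyrobp (DAP12), the other adaptor, changed by -2.63 ± 0.19 in GM and -1.78 ± 0.19 in GM4 DC from 0 h to 20 h.

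Of 12 selectins and genes for selectin ligands, 6 fell at 6 h in GM DC and 2 in GM4 DC. Selplg (PSGL-1), the ligand of the selectins, changed by -1.34 ± 0.19 and -0.69 ± 0.17 there, and Fut7, a fucosyltransferase of selectin ligands, fell by 1.39 ± 0.29 in GM DC. Of 6 sheddases 1 was higher and 2 lower in GM4 DC at 0 h, and Adam8 rose by 1.53 ± 0.16 by 20 h in GM DC.

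Of 18 regulators of leukocyte integrin genes, 3 were higher and 5 lower in unstimulated GM4 DC, and 2 were higher and 4 lower after 6 h. Cebpb was lower in GM4 DC at all 3 times (-1.41 ± 0.16, -1.76 ± 0.17 and -0.76 ± 0.19), and Irf4 was higher by 2.15 ± 0.25, 1.69 ± 0.28 and 1.61 ± 0.31. Spi1, the gene of PU.1, was picked for its motif after its values were seen: it was lower in GM4 DC at 6 h (-0.89 ± 0.15, adjusted p = 0.00185), and at 0 h and 20 h it differed by -0.20 ± 0.14 and -0.59 ± 0.17 (adjusted p = 0.38 and 0.0604). Cebpa changed at 6 h by -2.42 ± 0.13 in GM and -1.74 ± 0.12 in GM4 DC, and Irf8 rose by 2.05 ± 0.23 and 0.98 ± 0.21.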

How the data were processed

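RNA from 15 samples was hybridised, each to its own Affymetrix array. The authors deposited MAS5 output (per the submitters' processing notes, which give no version) as linear probe set intensity values. Every array had a 2% trimmed mean of about 150.1, so a change in total RNA per cell is hidden by the scaling. Detection calls were not used.

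After removal of 66 control probe sets from 12488, 12422 were fitted on log2(signal + 16) using limma 3.58.1 (R 4.3.3), with 6 group means over all 15 arrays, 9 residual degrees of freedom, trended moderation (prior degrees of freedom 4.76), two-sided tests and Benjamini-Hochberg adjustment in each comparison. The fit was tested on simulated data. The members, 14 gene lists (188 of 224 genes measured), the naming rule (all members, and per list and comparison the 2 called genes furthest each way, of which a part is printed) and the alternatives were chosen with earlier results of these data known. Samples that share a replicate number correlated at 0.0026 to 0.332 in their deviations from group means. Numbers were taken to pair 2 groups where 3 pairs were all above 0.1, which held only for GM4 DC at 0 h and 6 h (0.115 to 0.193). Comparisons with a group of 2 arrays could not meet this rule. Of these, GM and GM4 DC had every same-number pair above 0.1 at 6 h (0.181 to 0.279) and at 20 h (0.296). So had GM 0 h and GM4 20 h (0.120 to 0.161). The replicate block was nevertheless fitted over all 15 arrays. Promoters come from RefSeq on GRCm38.p6, with entries for 4 of 6 members. The alternatives changed the offset (1 or 64), the normalization (quantiles, median centring), the probe sets kept (without the lowest 40%), the trend, array weights, a replicate block, the probe set summary, the groups fitted, an RNA quality covariate and the arrays left out.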

Additional observations from a re-analysis of the deposited data

Results flagged for a closer look

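No integrin gene met a rule for a closer look, since groups of 2 or 3 arrays were not tested for a stray sample and none of the 12 differences of responses passed. Among the listed genes named beside them, the response to stimulation differed between DC types (limma, GM4 minus GM) for these. F11r, the junctional adhesion molecule that LFA-1 can bind, differed by 1.40 ± 0.25 at 6 h (adjusted p = 0.0151) and 1.39 ± 0.26 at 20 h (adjusted p = 0.0224), with mean signals of 711, 354 and 661 in GM DC and 358, 484 and 890.0 in GM4 DC at the 3 times. Rassf5 differed by 0.96 ± 0.17 at 6 h (adjusted p = 0.0135) and Pstpip1 by 1.15 ± 0.24 at 6 h (adjusted p = 0.0342). At 20 h Thy1 differed by -2.28 ± 0.52 (adjusted p = 0.0495), Adam8 by -1.19 ± 0.22 (adjusted p = 0.022), Ngp by -3.52 ± 0.41 (adjusted p = 0.00259) and Cd14 by 1.39 ± 0.27 (adjusted p = 0.0243).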

How the results depend on the processing

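Of 19 called member differences, 243 of 247 values under the 13 alternatives other than leaving out 1 array kept their call, as did 263 of 285 values with 1 array left out, and none changed direction. Of the 47 uncalled ones, 15 and 21 values turned in sign, and 37 and 15 became calls, and the cause was not tested. The number of the 6 genes called in GM4 against GM DC was 2 at 0 h, where it was 4 with a fixed replicate block and 1 with only the groups compared, and 0 at 20 h, where it was 1 with only the groups compared, 2 with the RNA quality covariate and 1 without the 2 doubted arrays. Against 0 h it was 1 in GM DC at 20 h and 2 with median centring or the fixed replicate block, 3 in GM4 DC at 6 h and 5, 6 and 5 with low signals left out, array weights and the fixed replicate block, and 1 in GM4 DC at 20 h and 2 with that block. In GM4 DC from 6 h to 20 h it was 3, and 5 with the RNA quality covariate. With 1 array left out these counts ran from 1 to 2, 0 to 1, 1 to 2, 2 to 5, 1 to 2 and 1 to 4 in that order. All 33 same-number pairs of arrays correlated above 0 and 17 above 0.1 (median 0.10), against 2 of 60 pairs of unlike number (median -0.076), and a random block had a consensus correlation of 0.0676. Deviations from the group mean sum to 0 within a group, so higher same-number values bring lower values at unlike numbers. These pairs are therefore not independent, and the 2 kinds of pair are not a contrast with unrelated arrays. Every array correlated best with its own number between GM and GM4 DC at 0 h (6 of 6), where the 3 pairs ran from 0.056 to 0.332. Beside the GM4 calls at 6 h, the fixed block made calls of Itgam between DC types at 0 h (-0.89) and 6 h (-1.22) and against 0 h in GM DC at 6 h (-1.02) and 20 h (-1.04) and GM4 DC at 20 h (-0.96), and of Itga4 between DC types at 0 h (0.60).

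Turned values were all of uncalled differences. Itga4 in GM DC at 20 h was -0.03 and became 0.11 with quantile normalization, 0.087 with median centring, 0.077 with array weights and 0.082 with the RNA quality covariate, and -0.19 to 0.24 with 1 array left out. The covariate also gave -0.039 for Itgax and -0.22 for Itga4 in GM4 against GM DC at 20 h, 0.48 for Itgam in GM DC from 6 h to 20 h and -0.34 for its difference of 20 h responses, which array weights gave as -0.0025. The difference of 6 h responses of Itgb2 became 0.15 with quantile normalization, 0.068 with the fixed replicate block and 0.21 without the 2 doubted arrays, GM 0 h replicate 3 and GM 6 h replicate 1, and the 6 h differences between DC types without those were 0.031 for Itga4 and 0.0067 for Itgb7. On the mean of its probe sets Itgb7 in GM DC at 6 h was 0.15. With 1 array left out, the 6 h differences between DC types ran from -0.26 to 0.014 for Itgax, -0.43 to 0.031 for Itga4 and -0.30 to 0.0067 for Itgb7, and the 20 h one of Itgax from -0.041 to 0.19. The changes to 20 h ran from -0.38 to 0.034 for Itgb2 in GM DC and -0.34 to 0.027 for Itgb7 in GM4 DC. Differences of responses ran from -0.10 to 0.23 (Itgax, 6 h), -0.20 to 0.23 (Itgb2, 6 h) and -0.37 to 0.52 (Itgam, 20 h).

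Over all probe sets the number called moved by over 1.5 times under these alternatives. Between DC types it was 1736, 1383 and 584 at 0, 6 and 20 h, with 964, 794 and 335 under the RNA quality covariate, 1143 and 723 at 0 h and 6 h with only the groups compared, and 678 at 6 h without the 2 doubted arrays. In GM DC at 6 h it was 3012, with 1943 for only the groups compared and 1958 without those arrays, and from 6 h to 20 h 2044 and 1198 for only the groups compared. Array weights took GM4 DC at 6 h from 1970 to 3000 and from 6 h to 20 h from 1452 to 2212. The difference of 6 h responses had 119, with 213 for low signals left out, 230 for array weights, 206 and 196 for the fixed and random block and 70 for only the groups compared, and that of 20 h responses 157, with 304 for array weights and 260 for the fixed block. With 1 array left out the numbers ran from 1114 to 1743, 604 to 1464 and 146 to 650 for GM4 against GM DC at 0, 6 and 20 h, from 1929 to 3024 and 2383 to 3401 for GM DC at 6 and 20 h against 0 h and 1242 to 2148 between them, from 1381 to 2085, 1392 to 2711 and 566 to 1515 for GM4 DC, and from 54 to 298 and 15 to 168 for the differences of responses. Groups of 2 arrays and signals near 16 limit what could be called.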
